A study of Mus musculus with 12 samples.

Results

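The genes described here encode extracellular matrix proteins and the enzymes, inhibitors and receptors that act on them: fibrillar and other collagens, elastic fibre proteins, matrix glycoproteins and proteoglycans, and proteins of collagen crosslinking and matrix turnover. They were measured in mouse R1 embryonic stem cells with or without knockdown of Set, before and after 4 days of retinoic acid. The 42 genes were chosen by name, as a matrix programme of fibroblasts, with earlier results of these arrays known, partly because several of them stood far higher in retinoic acid in the scrambled control. Each gene was represented by its probe set with the highest mean over the 12 arrays. Of the 42, 40 were measured, out of 19938 genes with such a probe set; Fbn1 was not analysed here, and Loxl2 was left out because its only probe set is listed for several genes.

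Collagens are secreted as chains that wind around each other into helices. Prolyl hydroxylases stabilise those helices inside the cell, and lysyl oxidases crosslink them outside it. Elastic fibres are built on fibrillin microfibrils to which microfibril-associated proteins, fibulins and elastin bind, while fibronectin, tenascin, periostin, proteoglycans and matrilins link fibres to one another and to cells. Metalloproteinases and their tissue inhibitors set how fast this matrix is removed, and mesenchymal cells and the parietal endoderm of the early embryo are both known as strong matrix producers.

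Both states and all 3 lines came from R1 cells on gelatin-coated dishes. Growing cells (ESC) were kept in 15% serum with leukemia inhibitory factor at 1000 U/ml, and the other state (RA) received 1 µM retinoic acid for 4 days in 10% serum without that factor, so retinoic acid, serum and the factor cannot be told apart between the states. In each state a line infected with a scrambled control and 2 knockdown lines, KD1 and KD2, were sampled on 2 arrays each, labelled as biological replicates, which gave 6 groups and 12 arrays of 300 ng total RNA. Each knockdown is 1 line and the control is another, so knockdown and line cannot be told apart, and the labels name no separate cultures, so p-values measure only the spread between these arrays. The number of arrays limits the precision. In such bulk RNA, fewer cells of a type and less RNA per cell cannot be told apart. Values are log2 signals made by RMA, and a level of 1 gene is comparable across arrays but not with that of another gene.

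Of 4 probe sets annotated to Set, the 2 that list it together with BC085271 read lower on every knockdown array than on the scrambled arrays of the same state (the brighter one 11.87 to 12.15 against 12.71 and 12.93 in ESC, and 11.16 to 11.99 against 12.27 and 12.29 in RA). The 2 dimmer ones that list Set alone did not separate the groups in this way. In RA the first of them read 6.61 and 6.72 in KD1, 6.79 and 7.91 in KD2 and 6.68 and 6.45 in scrambled cells, and the second 6.35 and 6.04, 6.20 and 7.05, and 5.83 and 6.09. In ESC they read lower on both KD1 arrays than the mean of the scrambled arrays, and on ESC KD2 replicate 1 the first read 8.54, above the lower scrambled array (8.39). In KD2, replicate 2 of each state resembled the other state. Over all genes that labelled ESC correlated with the other ESC arrays at a mean r of 0.952 and with RA arrays at 0.986, and that labelled RA with other RA arrays at 0.952 and with ESC arrays at 0.986. The one labelled ESC was nearer to the other state's mean for 35 of the 40 matrix genes (87.5%, against 77.6% of all genes) and the one labelled RA for 37 (92.5%, against 73.4%). The single array most like the one labelled ESC was RA KD2 replicate 1 (r = 0.998), and that most like the one labelled RA was ESC Scrambled replicate 2 (r = 0.994). These are called the 2 discordant arrays below. Whether their labels were exchanged was not tested; if they were, every 12-array KD2 value averages 1 array of each state, and the wider spread enters every other 12-array test. No array was moved to another group, and each result is given from the planned fit to all 12 arrays and from a fit to the 10 others, in which KD2 is 1 array per state and is taken to vary as the others do.

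The matrix genes stood higher in RA than in ESC in scrambled and in KD1 cells. Their median level was 7.39 to 7.59 on the 5 concordant ESC arrays and 8.52 to 9.18 on the 5 concordant RA arrays, and the 2 sets of arrays did not overlap. The discordant ESC array had a median of 8.80 and the discordant RA array one of 7.64. Between 24 and 28 of the 40 genes lay above 7.22, the median of all values in the table, on the concordant ESC arrays, and 32 to 36 did on the concordant RA arrays. The array map shows a block of genes with very large differences between the states, a block with little difference, and a few genes that were set apart by the KD1 line.

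**Figure D1:**
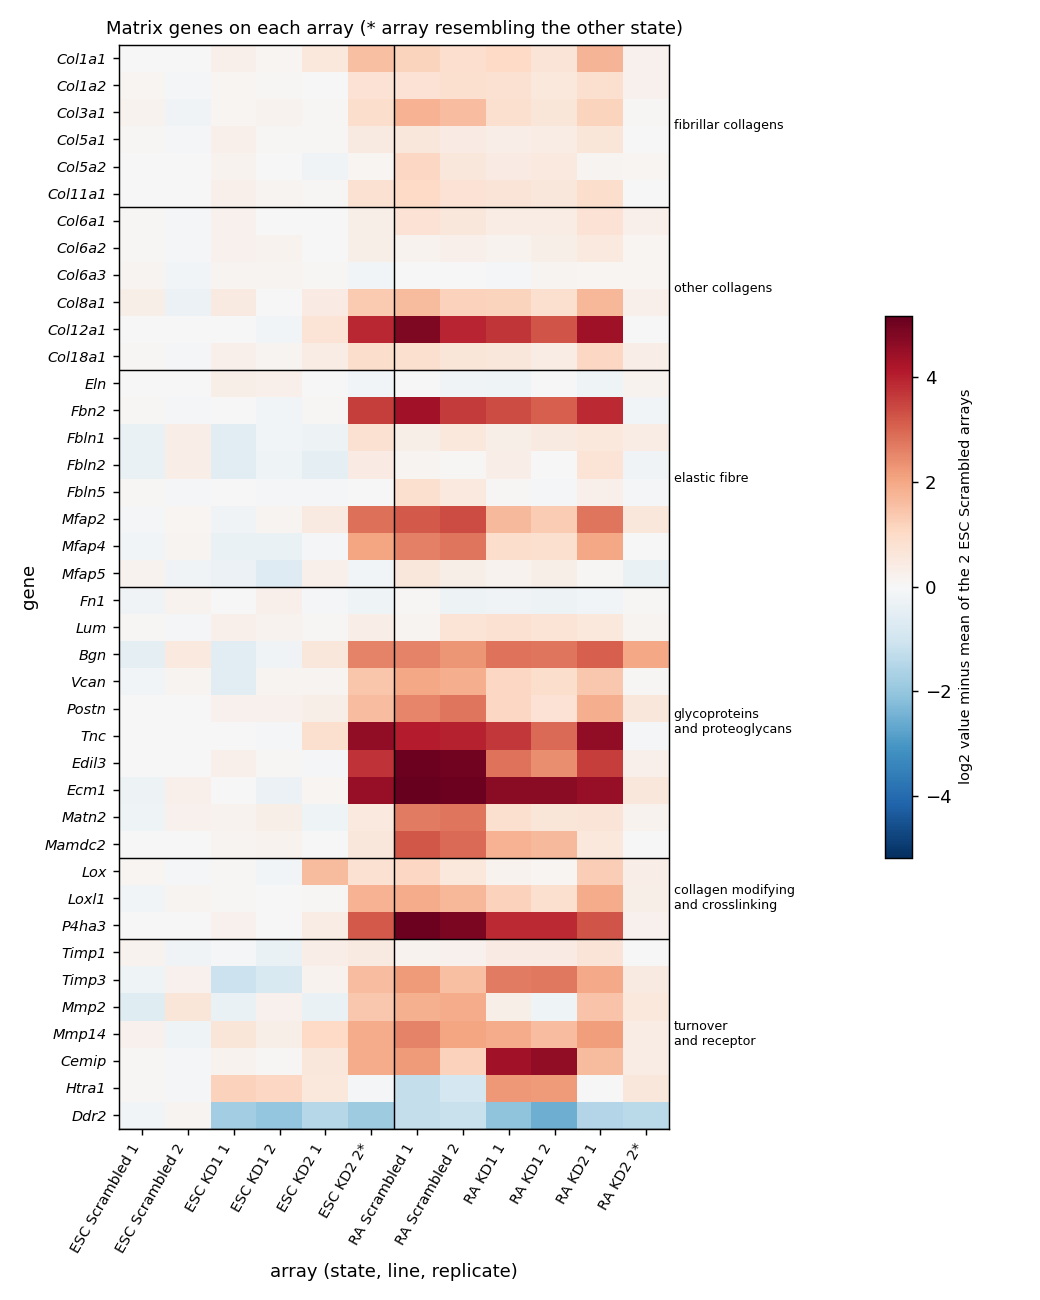
Each cell shows the log2 value of 1 matrix gene (rows, grouped by role) on 1 array (columns, 6 ESC then 6 RA arrays) minus the mean of the 2 scrambled ESC arrays. Col12a1, Fbn2, Tnc, Edil3, Ecm1 and P4ha3 are dark red on the scrambled RA arrays, Cemip and Htra1 are reddest on the KD1 RA arrays, and the 2 arrays with an asterisk look like the other state.

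For scrambled cells the genes were chosen with this difference known, so it is a description without a test. The calls and counts below follow in part from that choice, and the shares of all genes beside them measure no enrichment. Of the 40, 35 were above 0, with a median log2 difference of 1.21 against -0.04 over all genes. Both RA arrays exceeded both ESC arrays for 33 of them, as they did for 32.0% of all genes. By the call used throughout, an adjusted p below 0.05 in limma over all genes, 15 were higher and 2 lower with 12 arrays (background 8.14% higher and 5.66% lower) and 30 higher and 2 lower with 10 arrays (21.8% and 20.8%). A difference of more than 1 log2 unit was seen for 21 genes, of more than 2 for 13 and of more than 4 for 5, and 2 were lower by more than 1.

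In KD1 cells the arrays are different ones and the difference was tested, except for 7 genes (Htra1, Matn2, Mamdc2, Edil3, Postn, Col3a1 and Ddr2) that earlier results had named for their values on KD1 or scrambled arrays of 1 state, which are described without a p. All lines came from R1 cells and had the same change of state, so genes chosen for a rise in scrambled cells may rise here too. Counts in KD1 and KD2 cells are therefore not independent of the choice, and the shares beside them measure no enrichment. With 12 arrays 6 of the 40 genes were called higher and 0 lower, beside 7.02% and 4.26% of all genes. Among the 33 others these were Bgn, P4ha3, Timp3 and Cemip, and the remaining calls were Mamdc2 and Htra1. With 10 arrays 27 of the 40 were called higher and 1 lower, beside 20.3% and 20.8% of all genes, with the 6 among them; of the 33 others 21 rose and 1 fell. The median was 0.69 against -0.08 over all genes, and 36 of 40 were above 0. More than 1 log2 unit separated the states for 16 genes and more than 4 for 2. In KD2 cells 0 matrix genes were called with 12 arrays, and 0 had an unadjusted limma p below 0.05, nor was any gene of the whole table called (0%); with 10 arrays 26 of the 40 were called higher and 0 lower, beside 11.0% and 9.46% of all genes, from 1 array per state. In KD2 cells 12 of the 40 genes had a difference of the opposite sign in the 2 fits, Tnc and Col12a1 among them. With the replicate number as a block within each state, the 10 arrays called 3 more genes in KD1 cells and kept all 28. Col18a1 and Fbln2 were added as higher and Fn1 (-0.35) as lower. This made 29 higher and 2 lower, beside 24.4% and 26.5% of all genes.

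The promoter windows of 4 genes are shown because these genes lie at the ends of the patterns. Ecm1 and P4ha3 differed between states by 5.12 and 4.98 log2 units in scrambled cells, and Cemip and Htra1 stood highest on the KD1 RA arrays. The windows, from RefSeq on build GRCm38.p6, run from 250 bases before to 50 bases after the annotated start and are written 5′ to 3′ on the gene's strand: Ecm1 at chr3:95739520-95739819 (minus strand), P4ha3 at chr7:100285270-100285569 (plus), Cemip at chr7:84086456-84086755 (minus) and Htra1 at chr7:130935953-130936252 (plus). Capitals mark every match to the motifs searched on both strands.
Ecm1: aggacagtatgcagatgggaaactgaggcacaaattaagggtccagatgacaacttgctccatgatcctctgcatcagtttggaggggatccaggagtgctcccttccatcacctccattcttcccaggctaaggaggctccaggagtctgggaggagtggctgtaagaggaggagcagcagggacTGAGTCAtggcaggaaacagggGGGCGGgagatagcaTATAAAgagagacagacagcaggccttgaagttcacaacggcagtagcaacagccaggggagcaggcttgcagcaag
P4ha3: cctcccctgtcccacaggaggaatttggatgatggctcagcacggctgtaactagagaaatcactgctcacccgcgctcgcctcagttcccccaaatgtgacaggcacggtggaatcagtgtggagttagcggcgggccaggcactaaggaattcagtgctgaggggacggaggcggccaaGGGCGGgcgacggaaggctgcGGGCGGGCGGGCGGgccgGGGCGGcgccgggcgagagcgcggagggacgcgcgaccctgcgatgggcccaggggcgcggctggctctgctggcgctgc
Cemip: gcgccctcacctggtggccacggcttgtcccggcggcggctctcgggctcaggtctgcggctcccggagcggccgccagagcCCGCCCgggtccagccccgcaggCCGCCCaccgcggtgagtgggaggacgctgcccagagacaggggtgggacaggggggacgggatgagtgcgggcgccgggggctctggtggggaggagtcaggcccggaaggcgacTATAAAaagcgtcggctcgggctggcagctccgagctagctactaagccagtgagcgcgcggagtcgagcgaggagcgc
Htra1: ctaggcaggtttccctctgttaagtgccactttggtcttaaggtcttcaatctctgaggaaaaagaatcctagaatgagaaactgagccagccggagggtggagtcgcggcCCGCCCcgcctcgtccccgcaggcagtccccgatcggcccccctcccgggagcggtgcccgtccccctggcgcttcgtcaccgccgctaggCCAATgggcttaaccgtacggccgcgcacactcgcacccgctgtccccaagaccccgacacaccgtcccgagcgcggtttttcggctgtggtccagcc

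Ecm1 held a TATA box (TATAAA) at -27, a GC box (GGGCGG) at -42 and an AP-1 match (TGANTCA) at -64, counted in bases from the start. P4ha3 held 5 GC boxes between -69 and -30, of which those at -48, -44 and -40 overlap. Cemip combined a TATA box at -29 with GC boxes on the other strand at -168 and -145, and Htra1 had a CCAAT box (CCAAT) at -48 and a GC box on the other strand at -139. Windows were matched for 25 of the genes, with 32 windows in all. GC boxes were in 68.8% of these 32 windows and in 35.7% of all 32851 windows of the same length; median GC content was 60% and 52.7%. TATA boxes were in 21.9% against 13.6%, CCAAT boxes in 31.2% against 37.4%, AP-1 matches in 6.25% against 7.81%, and nuclear receptor half-sites (AGGTCA) in 15.6% against 16.3%. The GATA motif (AGATAA) was in 0 of the 32 windows and in 11.2% of all; these are letters in a window, and binding was not measured.

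The fibrillar collagens, which form the load-bearing fibres of connective tissue, differed modestly between the states. In the order scrambled 1 and 2, KD1 1 and 2, KD2 1, Col1a1 (a chain of type I collagen) read 8.49, 8.56, 8.77, 8.64 and 9.08 in ESC and 9.68, 9.38, 9.56, 9.21 and 10.29 in RA; the discordant ESC and RA arrays read 10.08 and 8.75. Every concordant RA array was above every concordant ESC array. Its partner chain Col1a2 read 8.09, 7.85, 8.09, 8.03 and 7.99 in ESC and 8.71, 8.78, 8.74, 8.53 and 8.79 in RA, with 8.72 and 8.19 on the discordant arrays. Again the states did not overlap on the concordant arrays, and the lines lay close together within a state.

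Col3a1, the type III chain of distensible tissues, read 7.72, 7.37, 7.65, 7.73 and 7.61 in ESC, 9.34, 9.13, 8.38, 8.19 and 8.68 in RA, and 8.45 and 7.61 on the discordant arrays. The scrambled RA arrays were the highest and the KD1 RA arrays the lowest of the concordant RA arrays. In KD1 cells Col1a1 rose by 0.68 (SE 0.16, adjusted p = 0.00786), Col1a2 by 0.58 (SE 0.14, adjusted p = 0.00804) and Col11a1, a minor fibrillar chain, by 0.44 (SE 0.13, adjusted p = 0.0259) with 10 arrays, and none of these passed with 12; the Col3a1 difference was 0.59, without a test. Col5a1 and Col5a2, which regulate fibril diameter, differed by 0.20 and 0.34 there and were not called. In scrambled cells the 6 fibrillar chains lay between 0.50 and 1.69 log2 units higher in RA.

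Among the other collagens the type XII chain stood out. Col12a1, a fibril-associated collagen, read 6.30, 6.29, 6.31, 6.14 and 7.01 in ESC and 11.13, 10.22, 9.98, 9.56 and 10.68 in RA, with 10.19 and 6.30 on the discordant arrays. The states were separated by more than 2 log2 units on the concordant arrays, and the discordant arrays sat at the level of the other state. In KD1 cells it rose by 3.55 (11.7-fold, SE 0.27, adjusted p = 1.19e-05) with 10 arrays; with 12 the SE was 1.32 and the adjusted p 0.0959.

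Col6a1, a chain of the beaded type VI filaments, read 7.32, 7.22, 7.50, 7.31 and 7.29 in ESC and 8.02, 7.86, 7.67, 7.67 and 8.02 in RA, with 7.59 and 7.54 on the discordant arrays. The gap between states was small and narrowest in KD1 cells, where the difference of 0.27 was not called (adjusted p = 0.114 with 10 arrays). Col6a2 and Col6a3, its partner chains, ranged over 0.59 and 0.30 log2 units across all 12 arrays. Col8a1, a short-chain collagen, rose by 0.76 in KD1 cells (SE 0.25, adjusted p = 0.0367, 10 arrays), and Col18a1, the basement membrane source of endostatin, differed by 0.26 and was not called.

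The elastic fibre genes split. Fbn2, the fibrillin of embryonic microfibrils, read 6.91, 6.76, 6.85, 6.68 and 6.89 in ESC and 11.16, 10.47, 10.22, 9.91 and 10.69 in RA, with 10.41 and 6.71 on the discordant arrays. Eln, which encodes elastin itself, read 7.14, 7.13, 7.45, 7.38 and 7.13 in ESC and 7.15, 6.95, 6.92, 7.13 and 6.93 in RA, with 6.98 and 7.33 on the discordant arrays. The fibrillin was far higher on every concordant RA array, while the elastin arrays of both states overlapped. In KD1 cells Fbn2 rose by 3.30 (9.87-fold, SE 0.22, adjusted p = 6.03e-06) and Eln fell by 0.40 (SE 0.12, adjusted p = 0.028), both with 10 arrays and neither with 12.

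The microfibril-associated genes Mfap2 and Mfap4 showed the clearest line effect of this role. Mfap2 read 8.60, 8.84, 8.54, 8.85 and 9.17 in ESC and 11.91, 12.11, 10.41, 10.02 and 11.48 in RA, with 11.58 and 9.30 on the discordant arrays. Mfap4 read 7.56, 7.81, 7.35, 7.35 and 7.62 in ESC and 10.28, 10.46, 8.59, 8.51 and 9.68 in RA, with 9.72 and 7.70 on the discordant arrays. For both, the KD1 RA arrays lay between the ESC arrays and the other concordant RA arrays. In KD1 cells they still rose between the states, by 1.52 (SE 0.17, adjusted p = 0.000133) and 1.20 (SE 0.13, adjusted p = 0.00012), with 10 arrays. Mfap5 rose by 0.72 (SE 0.18, adjusted p = 0.0105) and Fbln1, a fibulin, by 0.74 (SE 0.22, adjusted p = 0.0256); Fbln2 and Fbln5 differed by 0.56 and 0.03 and were not called.

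The glycoproteins and proteoglycans held the largest differences between states, with a median of 2.69 log2 units in scrambled cells and 1.39 in KD1 cells. Ecm1, a glycoprotein that binds other matrix proteins, read 7.66, 8.22, 7.95, 7.62 and 8.06 in ESC and 13.11, 13.01, 12.62, 12.60 and 12.44 in RA, with 12.46 and 8.52 on the discordant arrays. The concordant RA arrays of all 3 lines lay close together and far above ESC. Its rise in KD1 cells was 4.82 (28.3-fold, SE 0.18, adjusted p = 3.78e-07) with 10 arrays, and the adjusted p was 0.0579 with 12.

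Tnc encodes tenascin C, an adhesion-modulating glycoprotein of developing and healing tissue. It read 6.40, 6.48, 6.47, 6.39 and 7.25 in ESC and 10.50, 10.41, 10.10, 9.36 and 11.04 in RA, with 11.01 and 6.38 on the discordant arrays. It rose by 3.30 (SE 0.21, adjusted p = 5.05e-06) in KD1 cells with 10 arrays and was not called with 12 (adjusted p = 0.136). Bgn (biglycan, a small leucine-rich proteoglycan) rose by 3.16 in KD1 cells in both fits (adjusted p = 0.0207 with 12 arrays, SE 0.61, and 2.93e-05 with 10, SE 0.28). On the discordant RA array Bgn read 9.23, near the other RA arrays (9.54 to 10.36) and above the concordant ESC arrays (6.70 to 7.85), unlike most of the matrix genes.

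Edil3, an integrin ligand, Matn2, a matrilin that links filaments, and Mamdc2, a secreted protein with MAM domains, were highest in scrambled RA. Edil3 read 5.17, 5.09, 5.39, 5.20 and 5.04 in ESC and 10.18, 10.13, 7.93, 7.52 and 8.69 in RA, with 8.88 and 5.41 on the discordant arrays. Matn2 read 6.10, 6.54, 6.49, 6.64 and 6.09 in ESC and 9.02, 9.09, 7.15, 6.93 and 7.0 in RA, with 6.84 and 6.50 on the discordant arrays. Mamdc2 read 5.78, 5.80, 5.94, 5.99 and 5.77 in ESC and 9.01, 8.73, 7.59, 7.48 and 6.33 in RA, with 6.36 and 5.81 on the discordant arrays.

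The 2 scrambled RA arrays were above every other array for each of these 3 genes. The order of the knockdown lines in RA differed: KD2 replicate 1 was above KD1 for Edil3, between the KD1 arrays for Matn2 and below them for Mamdc2. In KD1 cells, without a test, the difference between the states was 1.58 for Mamdc2, 2.43 for Edil3 and 0.48 for Matn2.

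Postn (periostin, a collagen-binding protein of mesenchyme) read 5.22, 5.25, 5.45, 5.45 and 5.54 in ESC and 7.76, 8.02, 6.32, 5.99 and 7.13 in RA, with 6.82 and 5.83 on the discordant arrays. It ran in the same order as Mfap2 and Mfap4 on the concordant RA arrays, scrambled above KD2 above KD1. Vcan, the hyaluronan-binding proteoglycan versican, read 11.54 and 11.40 in scrambled RA, 10.61 and 10.45 in KD1 and 10.91 in KD2 replicate 1, and rose in KD1 cells by 1.20 (SE 0.21, adjusted p = 0.00171, 10 arrays). Fn1, fibronectin, read 12.59, 12.98, 12.76, 13.06 and 12.70 in ESC and 12.83, 12.51, 12.60, 12.51 and 12.66 in RA, with 12.57 and 12.86 on the discordant arrays. Its states overlapped over all lines, and its whole range was 0.55. In KD1 cells both RA arrays lay below both ESC arrays (-0.35), which was called only with 10 arrays and the replicate block.

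Lum, a corneal and dermal proteoglycan, read 4.33, 4.17, 4.50, 4.45 and 4.31 in ESC and 4.41, 4.97, 5.03, 4.97 and 4.81 in RA, with 4.60 and 4.40 on the discordant arrays. All of its values lay below 7.22, the median of all values, and its rise of 0.52 in KD1 cells (SE 0.16, adjusted p = 0.0252, 10 arrays) is a rise at a low signal.

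Of the collagen-modifying enzymes, P4ha3, a catalytic subunit of collagen prolyl hydroxylase, read 6.35, 6.39, 6.59, 6.38 and 6.77 in ESC and 11.45, 11.25, 10.21, 10.24 and 9.64 in RA, with 9.55 and 6.60 on the discordant arrays. The scrambled RA arrays were highest, KD1 was next and KD2 replicate 1 was the lowest of the concordant RA arrays. In KD1 cells P4ha3 rose by 3.74 (13.3-fold) in both fits (adjusted p = 0.0468 with 12 arrays, SE 1.00, and 2.57e-07 with 10, SE 0.13). The lysyl oxidase Lox read 5.67, 5.50, 5.65, 5.46 and 7.22 in ESC and 6.66, 6.13, 5.78, 5.68 and 6.84 in RA, with 6.39 and 5.91 on the discordant arrays. For Lox the highest array was ESC KD2 replicate 1, and the KD1 arrays of both states differed by 0.17, which was not called. Its relative Loxl1 rose in KD1 cells by 1.01 (SE 0.17, adjusted p = 0.00117, 10 arrays).

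The turnover genes and the collagen receptor did not move as one. Timp1, a metalloproteinase inhibitor, read 10.65, 10.30, 10.39, 10.14 and 10.82 in ESC and 10.66, 10.68, 10.91, 10.90 and 11.14 in RA, with 10.95 and 10.48 on the discordant arrays. Timp3, the inhibitor that binds to the matrix, read 8.88, 9.33, 7.98, 8.32 and 9.27 in ESC and 11.31, 10.66, 11.81, 11.84 and 11.08 in RA, with 10.71 and 9.56 on the discordant arrays. Timp1 differed little, while for Timp3 the KD1 arrays were the lowest in ESC and the highest in RA. In KD1 cells Timp3 rose by 3.68 (12.8-fold) in both fits (adjusted p = 0.00828 with 12 arrays, SE 0.55; 4.27e-06 with 10, SE 0.23), and Timp1 rose by 0.64 with 10 arrays only (SE 0.14, adjusted p = 0.00462).

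Mmp2, gelatinase A, read 9.20, 10.45, 9.49, 10.06 and 9.49 in ESC and 11.68, 11.74, 10.13, 9.60 and 11.28 in RA, with 11.21 and 10.39 on the discordant arrays. The scrambled ESC arrays were 1.25 apart, and in KD1 cells the states overlapped (difference 0.09, adjusted p = 0.856 with 10 arrays). Mmp14, the membrane protease that activates Mmp2 protein, rose in KD1 cells by 1.31 (SE 0.22, adjusted p = 0.00145, 10 arrays).

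Cemip, a protein of hyaluronan breakdown, read 6.34, 6.23, 6.45, 6.33 and 6.86 in ESC and 8.49, 7.48, 10.63, 10.86 and 7.91 in RA, with 8.20 and 6.68 on the discordant arrays. Htra1, a secreted serine protease, read 9.57, 9.43, 10.71, 10.58 and 10.04 in ESC and 8.28, 8.61, 11.76, 11.72 and 9.49 in RA, with 9.44 and 10.09 on the discordant arrays. Both KD1 RA arrays were the highest of all 12 for both genes. In KD1 cells Cemip rose by 4.35 (20.4-fold) in both fits (adjusted p = 0.00356 with 12 arrays, SE 0.51; 4.29e-06 with 10, SE 0.27). The Htra1 difference between the states, without a test, was 1.10 in KD1 cells and -1.05 in scrambled cells.

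Ddr2, a receptor tyrosine kinase for fibrillar collagen, was the other gene with lower scrambled RA arrays (-1.20). It read 9.22, 9.49, 7.57, 7.35 and 7.87 in ESC and 8.12, 8.20, 7.28, 6.84 and 7.86 in RA, with 7.51 and 7.98 on the discordant arrays. All 4 ESC knockdown arrays lay below both scrambled ESC arrays by over 1 log2 unit. In KD1 cells the states differed by -0.40, without a test.

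**Figure D2:**
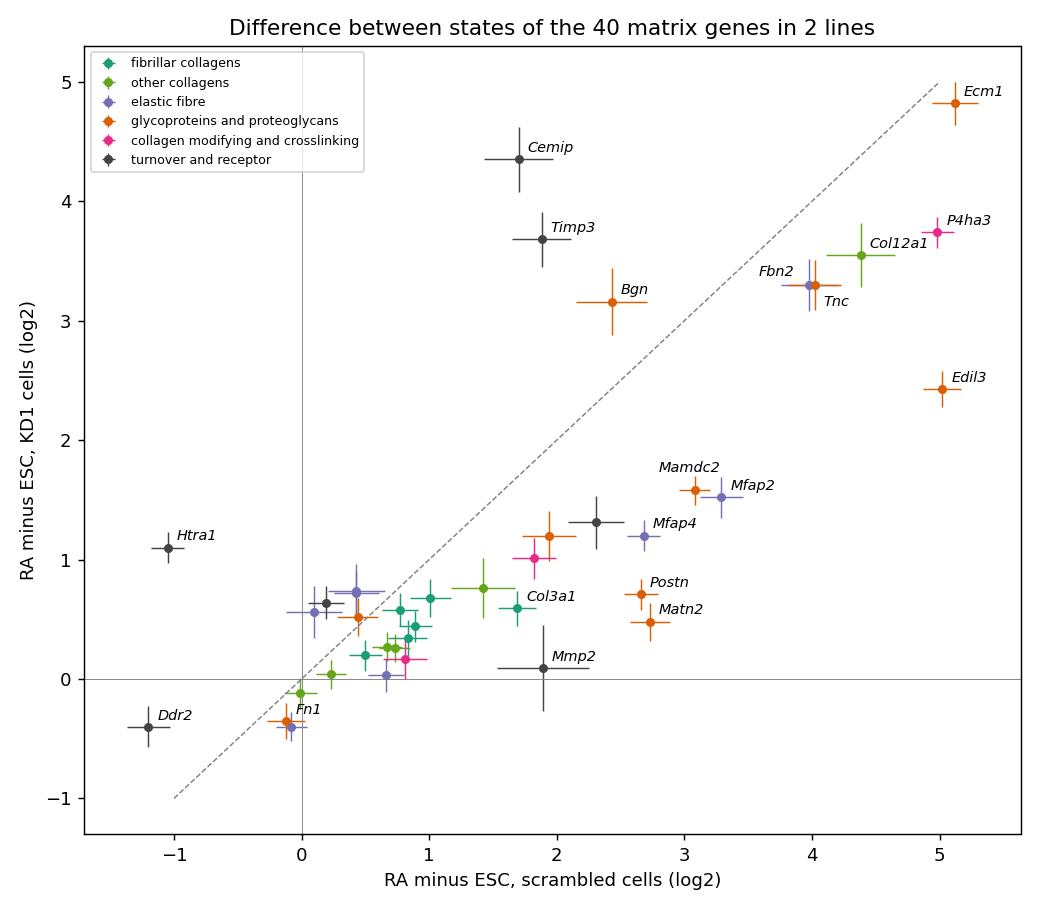
The log2 difference between RA and ESC of each of the 40 matrix genes in scrambled cells (horizontal) and in KD1 cells (vertical), coloured by role; bars are standard errors of the 10-array fit and the dashed line marks equal differences. Ecm1 (5.12 and 4.82) lies near the line, Edil3 (5.02 and 2.43) and Mfap2 (3.29 and 1.52) below it, and Cemip (1.70 and 4.35), Timp3 (1.88 and 3.68) and Htra1 (-1.05 and 1.10) above it.

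Set knockdown line KD1 differed from scrambled cells in RA in both directions. With 12 arrays 2 matrix genes were higher and 3 lower, beside 1.58% and 0.742% of all genes; with 10 arrays 3 were higher and 14 lower, beside 5.39% and 6.69%. The median was -0.41 against -0.01 over all genes. Since some of the genes were chosen for being high on the scrambled RA arrays, an excess of lower genes is not independent of the choice. Genes high on those arrays and lower in KD1 are therefore described by size. Htra1, Matn2, Mamdc2, Edil3, Postn and Col3a1 had been named in earlier results for this contrast and are given without a p. Among the 34 others, 1 was higher and 1 lower with 12 arrays, and 2 were higher and 9 lower with 10.

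Cemip was higher in KD1 by 2.76 (6.77-fold) in both fits (adjusted p = 0.0304 with 12 arrays, SE 0.51; 0.000311 with 10, SE 0.27). Ddr2 was lower by -1.10 in both fits (adjusted p = 0.0254, SE 0.20, and 0.00391, SE 0.17), and with the replicate block and 12 arrays its adjusted p was 0.0509. It had been named earlier for its values in ESC, so this difference of the same line is not an independent result. Timp3 was higher by 0.84 with 10 arrays (SE 0.23, adjusted p = 0.0434). Without a test, Htra1 stood 3.30 higher and Edil3 (-2.43), Matn2 (-2.01), Postn (-1.73), Mamdc2 (-1.33) and Col3a1 (-0.95) lower. Thus of the 7 turnover and receptor genes 3 were higher and 2 lower with 10 arrays, and no gene of the other roles was called higher.

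The genes called lower in KD1 with 10 arrays only included 3 of elastic fibres and 3 of collagen modification. Their sizes are given without a p from that fit, as the scrambled RA arrays entered the choice of genes. Mfap4 was lower by -1.82 (SE 0.13), Mfap2 by -1.80 (SE 0.17) and Fbln5, an elastic fibre assembly protein, by -0.66 (SE 0.14). All 3 measured modifying enzymes were lower: P4ha3 by -1.13 (SE 0.13), Loxl1 by -0.81 (SE 0.17) and Lox by -0.67 (SE 0.17). Mmp2 was lower by -1.85 (SE 0.36) and Vcan by -0.94 (SE 0.21). With 12 arrays these 8 had adjusted p from 0.0853 (Fbln5) to 0.776 (P4ha3). Col1a1 (-0.15), Col1a2 (-0.11), Col6a1 (-0.27), Fn1 (-0.11), Ecm1 (-0.45) and Eln (-0.03) were not called in either fit. With the replicate block the 10 arrays also called Col8a1, Col12a1, Col18a1, Fbn2, Tnc, Timp1 and Mmp14, which made 4 higher and 20 lower, beside 10.1% and 13.9% of all genes.

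KD2 gave fewer calls. With 12 arrays 0 genes were higher and 2 lower in RA, beside 0.0251% and 0.246% of all genes, the 2 being Matn2 and Mamdc2; with 10 arrays 1 was higher (Htra1) and 4 were lower, beside 0.326% and 0.637%. The only one of these 5 not named earlier was P4ha3, lower by -1.71 with 10 arrays and not called with 12 (adjusted p = 0.297). It was among the genes high on the scrambled RA arrays, so this too is a description. Without a test, Mamdc2 stood at -2.54, Matn2 at -2.05, Edil3 at -1.47 and Htra1 at 1.05 with 10 arrays. With 10 arrays and the replicate block 12 genes were called, 3 higher and 9 lower, beside 1.99% and 3.06% of all genes. The sign of this difference changed between the 2 fits for 15 of the 40 genes. Cemip, high in KD1, differed from scrambled by -0.07 in KD2 (95% interval -0.82 to 0.67, 10 arrays).

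**Figure D3:**
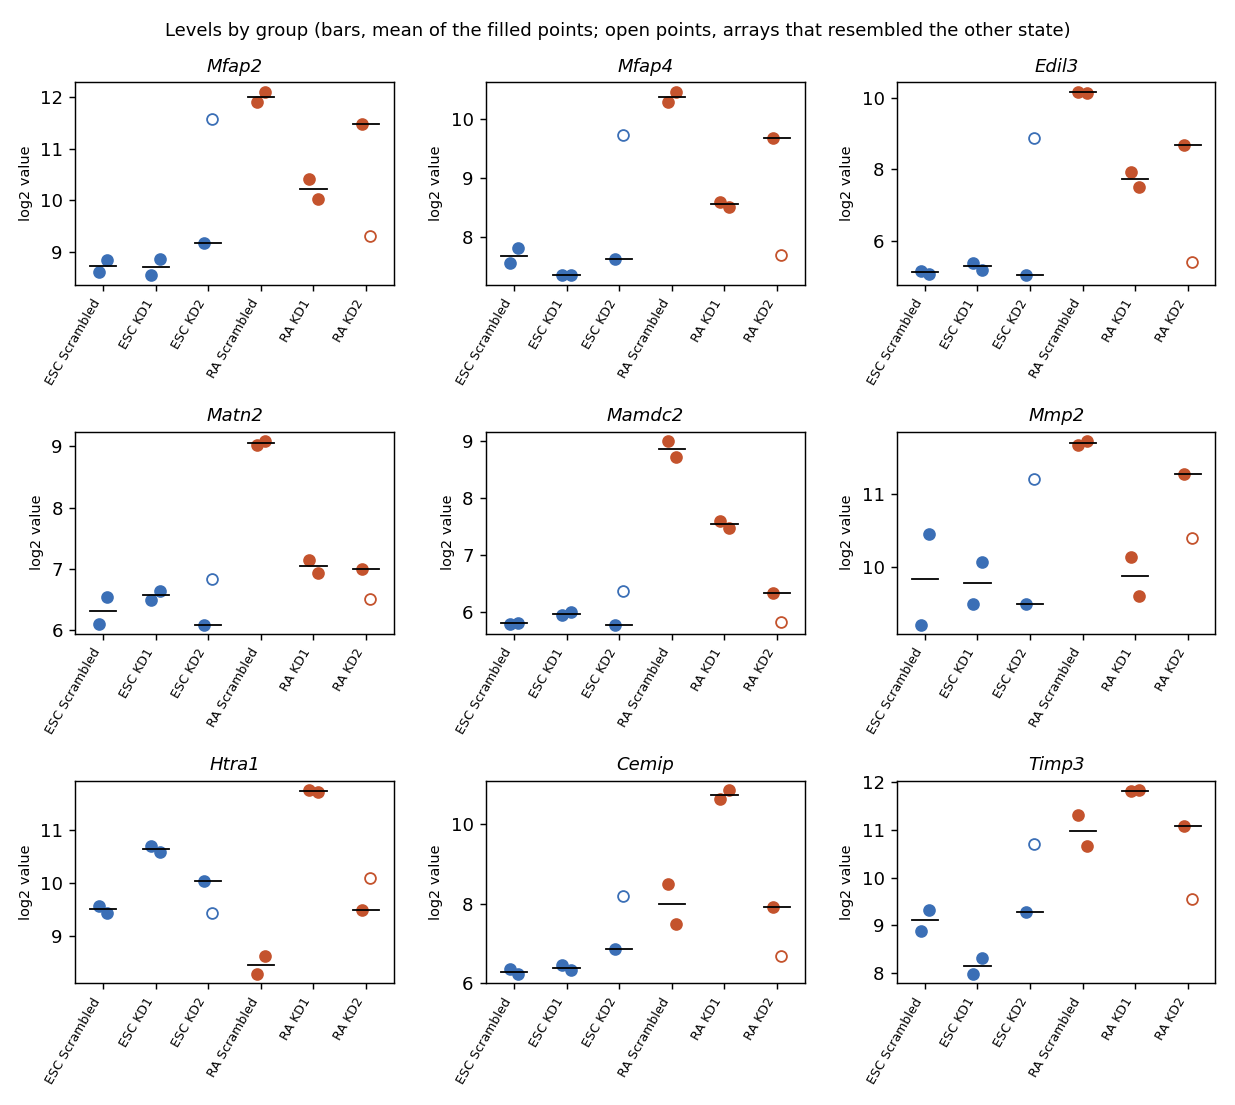
Log2 values of 9 matrix genes on each array by group (ESC blue, RA orange); bars are means of the filled points, and open points are the 2 arrays that resembled the other state. Mfap2, Mfap4 and Edil3 order scrambled, KD2, KD1 in RA, Mamdc2 orders scrambled, KD1, KD2, and Htra1 and Cemip are highest in KD1 RA.

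A direct comparison of the knockdown lines in RA, added after the values were seen, took no scrambled array into its difference. Its spread was pooled over all groups, the scrambled ones included. Of the genes called here, Htra1, Mamdc2, Postn and Edil3 had been named in earlier results and are given without a p. With 12 arrays 3 matrix genes were higher in KD1 (Cemip, Htra1 and Mamdc2) and 0 lower, beside 1.18% and 0.160% of all genes; with 10 arrays the same 3 were higher and 8 were lower, beside 2.41% and 1.31%. Cemip was higher by 3.45 with 12 arrays (SE 0.51, adjusted p = 0.017) and by 2.83 with 10 (SE 0.33, adjusted p = 0.00235). With 10 arrays Tnc was lower in KD1 by -1.30 (adjusted p = 0.0275), Mfap2 by -1.27 (0.0129), Mfap4 by -1.13 (0.0068), Lox by -1.11 (0.0204), Col1a1 by -0.91 (0.0383) and Loxl1 by -0.90 (0.0466). These 6 rest on the single array RA KD2 replicate 1. With the discordant array included, Tnc had the opposite sign (1.03), and leaving out RA KD1 replicate 2 from the 10 arrays left 3 genes called in all.

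Whether KD1 cells responded differently to the change of state was examined as an interaction. It contains the scrambled difference known when the genes were chosen, so a smaller rise in KD1 is not independent of the choice. No matrix gene was called with 12 arrays, beside 0.206% of all genes higher and 0.0552% lower, and 8 of the 40 had an unadjusted limma p below 0.05, 4 in each direction. The share of all genes below that unadjusted limit is not given here, so nothing is read from the 8. With 10 arrays 3 were called higher and 8 lower, beside 2.54% and 2.28%. Of the genes not named earlier, Cemip (2.66, SE 0.38, adjusted p = 0.00589) and Timp3 (1.80, SE 0.32, adjusted p = 0.0155) rose more in KD1. Mfap2 (-1.77, SE 0.24), Mfap4 (-1.48, SE 0.19) and P4ha3 (-1.24, SE 0.18) rose less, which is described without a p for that reason. With the replicate block the 10 arrays gave 25 calls, the 11 among them, 6 higher and 19 lower, beside 7.18% and 7.24% of all genes.

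In ESC the lines differed at few matrix genes. KD1 against scrambled gave 0 higher and 1 lower with 12 arrays (0.0201% and 0.0451% of all genes) and 1 higher and 1 lower with 10 (0.843% and 1.08%). The lower gene was Ddr2, at -1.90, which had been named earlier and is given without a p. The higher gene was Htra1, by 1.14 (SE 0.13, adjusted p = 0.00546 with 10 arrays; 0.252 with 12). Htra1 had been named earlier for KD1 in RA, so this difference of the same line is not an independent result. KD2 gave 0 higher and 1 lower with 12 arrays (0.0100% and 0.0752%) and 1 higher and 1 lower with 10 (0.717% and 0.271%). There Ddr2 stood at -1.67 and -1.49, and Lox was higher by 1.64 (SE 0.20, adjusted p = 0.0107) with 10 arrays, from the single array ESC KD2 replicate 1, and by 1.22 with 12 (adjusted p = 0.359). With the replicate block no matrix gene, Ddr2 included, was called in either line with 12 arrays. With that block and 10 arrays, KD1 had 2 higher and 4 lower, beside 3.99% and 6.53% of all genes.

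Matrix genes outside the 42 were read from further lists, beside the shares of all genes in the same fits. In KD1 against scrambled RA those were 5.39% higher and 6.69% lower with 10 arrays and 1.58% and 0.742% with 12. With 10 arrays 12 of 26 enzymes of collagen folding, processing and crosslinking (46.2%) were higher and 1 lower; with 12 arrays the counts were 4 and 1. The prolyl hydroxylases P4ha2 (2.50) and P4ha1 (2.30) and the lysyl hydroxylase Plod2 (1.76) led, while their relative P4ha3 was lower. Of 32 other collagen chains 2 (6.25%, near the share of all genes) were higher, the basement membrane chains Col4a1 (2.25) and Col4a2 (2.14), and Col14a1 was lower (-1.14), with none called with 12 arrays. Of 15 other elastic fibre genes 0 were higher and 6 (40%) lower, led by Ltbp1 (-1.25) and Efemp1 (-1.09), again with none at 12 arrays. Of 33 other proteoglycans and glycoproteins 2 (6.06%, again near the share of all genes) were higher and 8 (24.2%) lower, led by Hapln1 (-2.02), a hyaluronan link protein. Of 29 proteases and inhibitors 0 were higher and 6 (20.7%) lower, and of 26 matrix receptors 5 (19.2%) were higher and 4 (15.4%) lower. With 12 arrays these 3 lists gave 0 higher and 1, 2 and 0 lower.

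Between the states in KD1 cells, 16 of the 26 collagen enzymes rose (61.5%, against 7.02% of all genes) and 2 fell with 12 arrays, and 19 rose (73.1%, against 20.3%) and 3 fell with 10. P3h2, a prolyl 3-hydroxylase, rose by 5.31, P4ha2 by 3.82 and Serpinh1, the collagen chaperone, by 3.47. Of the 32 other collagen chains 2 rose in both fits (6.25%, below the share of all genes in each), Col4a2 (3.93) and Col4a1 (3.72), and 3 fell with 10. Of 33 other proteoglycans and glycoproteins 4 rose with 12 arrays (12.1%) and 10 with 10 (30.3%), led by Dcn, decorin (4.51).

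The name of the group was checked against fibroblast and mesenchymal markers that are not among the 42. The median of these 18 genes was 6.13 to 6.82 on the concordant ESC arrays and 8.23 to 9.09 on the concordant RA arrays. Twist1, Pdgfra, Dcn and Prrx1 were higher on every concordant RA array than on every concordant ESC array. Fap (4.20 to 4.47) and Dpt (4.56 to 4.85) stayed low on all 12 arrays, S100a4 and Meox2 also stayed below 7.22, and Thy1 was lower on every concordant RA array than in scrambled ESC. The arrays therefore carry part of a fibroblast marker list in RA, and the 42 genes are called matrix genes here.

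Markers of parietal endoderm, which also secretes matrix, were higher in KD1 RA than in scrambled RA, by a median of 2.25. The median of the matrix genes there was -0.41. Col4a1, Col4a2, Sparc and Plat among these markers are also on the other matrix lists. Of all genes, 1.58% were higher in this contrast with 12 arrays and 5.39% with 10. Between the states in KD1 cells 7.02% and 20.3% were higher. The median over the 15 markers was 7.69 to 8.51 on the concordant ESC arrays, 9.79 and 9.85 in scrambled RA, 12.34 and 12.35 in KD1 RA and 10.38 on RA KD2 replicate 1. In KD1 cells all 15 rose between the states in both fits, and against scrambled RA 5 were higher with 12 arrays and 14 with 10, led by Lama1 (3.71), Sox7 (3.41) and Gata4 (3.0); none was lower. Of the 18 fibroblast markers in that contrast, 1 was higher (Pdgfra, 2.86, which is on both lists) and 8 were lower with 10 arrays, led by Cdh11 (-2.04) and Twist1 (-1.14), and none was called with 12. With 10 arrays 4 of 9 visceral endoderm markers were higher and 1 lower, and none of 8 smooth muscle markers was called in that contrast.

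Of all genes, 8.14% were higher and 5.66% lower in RA in scrambled cells with 12 arrays, and 21.8% and 20.8% with 10. In KD1 cells these shares were 7.02% and 4.26% with 12 arrays, and 20.3% and 20.8% with 10. Smooth muscle markers moved with the matrix genes between the states. Their median over 8 genes was 8.53 to 9.98 on the concordant ESC arrays and 10.42 to 11.0 on the concordant RA arrays, with 10.70 and 9.87 on the discordant ones. In scrambled cells 5 of 8 were higher with 12 arrays and 6 with 10 (median difference 2.12), led by Acta2 (2.91), smooth muscle actin, and Tagln (2.87), an actin-binding protein. In KD1 cells 4 of 8 rose with 12 arrays, and 6 rose and 1 fell (Des, desmin) with 10 (median difference 2.0), led by Acta2 (4.03) and Myl9 (3.14), a myosin light chain. Of the 18 fibroblast markers 6 were higher and 0 lower in scrambled cells and 2 higher and 1 lower in KD1 cells with 12 arrays, and 13 and 1, and 11 and 1, with 10. Myh11, smooth muscle myosin, read 6.96 to 7.25 on the concordant ESC arrays and 7.46 to 9.26 on the concordant RA arrays.

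Embryonic stem cell markers had medians of 11.64 to 11.99 on the concordant ESC arrays and 8.45 to 9.45 on the concordant RA arrays, with 9.59 and 11.85 on the discordant ones; endothelial medians ran from 6.75 to 7.32 and neural ones from 7.63 to 8.15 over all 12 arrays. The part of these markers' cells in the matrix results was not tested.

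**Figure D4:**
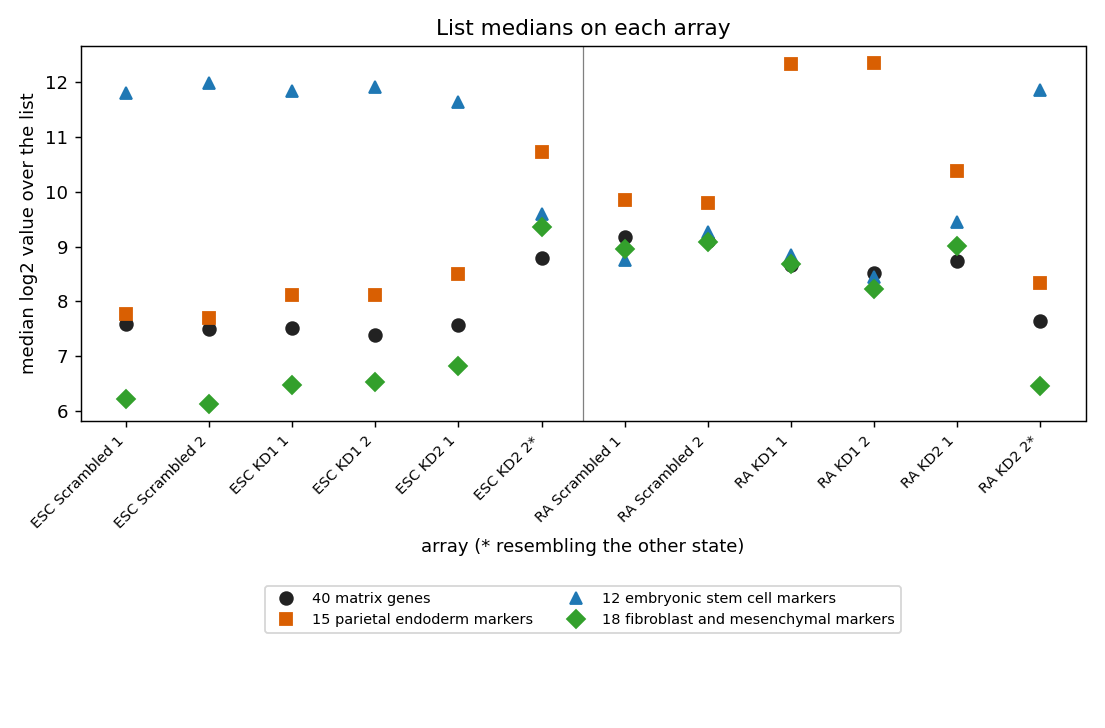
Median log2 value on each array of the 40 matrix genes and of 3 marker lists; the grey line separates ESC from RA, and asterisks mark the arrays that resembled the other state. Parietal endoderm markers are highest in KD1 RA (12.34 and 12.35), where matrix genes (8.66 and 8.52) lie below those of scrambled RA (9.18 and 9.11).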

How the data were processed

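Per the submitters' processing notes, the authors made the deposited log2 values with RMA (no version given), which corrects background, normalizes between arrays and gives 1 value per probe set; the genome build behind them is not given in the sources used here. The table held 35556 probe sets, of which 23410 were annotated, 21789 to 1 gene symbol and 1621 to several; those with several or none were left out. Array medians lay between 7.17 and 7.24. Groups came from the labels.

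The brightest probe set represented each of 19938 genes. Limma 3.58.1 in R 4.3.3 fitted the 6 groups, with empirical Bayes moderation and an intensity trend, and calls were made at a Benjamini-Hochberg adjusted p below 0.05 over all genes. The 12 arrays left 6 residual degrees of freedom (2.76 prior), and the 10 arrays 4 (4.93 prior). The scripts were tested on simulated data. Replicate deviations of same-numbered arrays correlated at 0.141 to 0.633 over the 6 pairs of groups within a state and at -0.864 to 0.105 between states; the labels state no shared day or batch, so the pairing within a state comes from the data. The planned fit has no block, and a blocked value is given where it changes a call or moves a count by over 1.5 times. This leaves out KD2 in ESC with 10 arrays, where KD2 is a single array. The genes, lists and the 10-array fit were chosen with earlier results of these data known. Values on every array are given for 20 genes picked by name and for up to 3 more per comparison with the largest difference; genes of other lists are the largest called ones. Alternatives were 10 or 12 arrays, each array left out, the replicate number as a block, quantile or median scaling, a constant prior, the mean of probe sets and a filter at the median of 7.22. Promoter windows and coordinates are RefSeq's on GRCm38.p6. Figures were drawn with matplotlib 3.10.9.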

Additional observations from a re-analysis of the deposited data

Results flagged for a closer look

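With the 2 discordant arrays left out, the difference between the states was not the same in KD1 and scrambled cells for 11 matrix genes by limma's interaction term (adjusted p below 0.05). The response in KD1 exceeded that in scrambled cells by 2.66 log2 units for Cemip, 2.15 for Htra1 and 1.80 for Timp3. It was smaller by -1.10 for Col3a1, -1.24 for P4ha3, -1.48 for Mfap4, -1.51 for Mamdc2, -1.77 for Mfap2, -1.95 for Postn, -2.26 for Matn2 and -2.59 for Edil3. Htra1 and the genes Col3a1, Mamdc2, Postn, Matn2 and Edil3 had been named in earlier results of these arrays, so their listing is a description. The scrambled difference was known when the genes were chosen, so the smaller responses in KD1 are not independent of the choice either. With all 12 arrays the sizes were the same and 0 of the 11 passed, while 8 of all 40 matrix genes had an unadjusted limma p below 0.05. That count has no share of all genes beside it, so nothing is read from it.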

How the results depend on the processing

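Leaving out the 2 discordant arrays raised the number of matrix genes called from 17 to 32 for RA against ESC in scrambled cells, from 6 to 28 in KD1 and from 0 to 26 in KD2. It raised the number from 1 to 2 for each line against scrambled in ESC, from 5 to 17 for KD1 and from 2 to 5 for KD2 against scrambled in RA, from 0 to 11 for the interaction, and in the comparison of KD1 with KD2 from 3 to 11. Every gene called with 12 arrays was also called with 10. The share of all genes called rose too. For scrambled RA against ESC it went from 8.14% higher and 5.66% lower to 21.8% and 20.8%. In KD1 it went from 7.02% and 4.26% to 20.3% and 20.8%. The shares for the other comparisons stand with their results above. The filter on dim genes left 0 called for KD2 in ESC. Other scalings, the constant prior and the mean of probe sets kept every count within 1.5 times.

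A replicate block across all groups gave 3 for scrambled RA against ESC, 0 for each line in ESC and 1 for KD2 in RA. Shares of all genes are not given for that block, so its counts show only how far the calls moved. A replicate block within each state gave 24 for scrambled RA against ESC (14.4% of all genes higher, 11.5% lower) and 9 for KD1 RA against ESC (11.8% and 8.96%). It gave 0 for each line in ESC and 1 for the interaction (0.211% and 0.0502%). That block without the 2 arrays, with 2 residual degrees of freedom, gave 34, 31 and 30 for RA against ESC in scrambled, KD1 and KD2 cells, 6 for each line in ESC, 24 and 12 for KD1 and KD2 in RA, 25 for the interaction and 16 between the knockdown lines in RA; every gene called without the block was also called with it except Mamdc2 in KD2 cells between the states.

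Leaving out 1 of the 12 arrays gave 1 to 29 genes for scrambled RA against ESC, 1 to 13 for KD1, 0 to 1 for each line in ESC, 1 to 6 and 1 to 7 for KD1 and KD2 in RA, 0 to 2 for the interaction and 0 to 5 between the knockdown lines in RA. Counts rose when any 1 KD2 array was left out for scrambled RA against ESC (28 to 29) and fell to 1 to 3 when any scrambled or KD1 array was. Leaving out 1 of the 10 arrays, tried after the data were seen, gave 10 to 20 for KD1 in RA (10 without RA KD1 replicate 2) and 2 to 4 for KD1 in ESC (4 without ESC Scrambled replicate 1). Shares of all genes are not set beside these leave-one-out counts, with 12 or 10 arrays. The counts show only how far the calls moved, and whether the matrix genes moved more than all genes cannot be read from them.

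Without the 2 arrays the sign turned for 12 of the 40 genes in RA against ESC in KD2 cells (median from 0.09 to 0.98), 9 in KD2 against scrambled in ESC (0.50 to 0.06), 15 in KD2 against scrambled in RA (-0.57 to 0) and 13 in KD1 against KD2 in RA (0.12 to -0.30), beside 36.6%, 25.6%, 23.3% and 25.2% of all genes. In KD1 against KD2 in RA, Tnc was -1.30 and Edil3 -0.96 without the 2 arrays (-1.09 and -0.84 with the replicate block), opposite to the 12-array values. Leaving out 1 of the 12 arrays moved Tnc from -1.30 to 3.36, Edil3 from -0.96 to 2.31, Mfap2 from -1.27 to 0.92, Mfap4 from -1.13 to 0.85, Col1a1 from -0.91 to 0.63, Postn from -0.97 to 0.33 and Loxl1 from -0.90 to 0.72, each lowest without RA KD2 replicate 2 and highest without RA KD2 replicate 1. Without RA KD1 replicate 2, Col1a1 stood at 0.04, Mfap2 at 0.02 and Loxl1 at 0.09. The cause was not tested.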
